A study of Mus musculus with 2 samples.

Results

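The miR-183 cluster and miR-375 are described here in newborn mouse lung. The genes were taken by symbol: Mir183, Mir96 and Mir182, which form the cluster, and Mir375, which lies elsewhere. All 4 matched a row, out of 1973 miRNA gene rows in the count tables, and all 4 had at least 10 reads in each library. The microRNA-seq libraries hold RNA under 30 bases from lung of B6NCrl mice on postnatal day 0. There is 1 group of 2 libraries, replicate 1 from pup 1 and replicate 2 from pup 3 of pregnancy 1, each made from 2 lungs. The labels name no allele, transgene or treatment, state that sex was not collected, and give both pups the same donor record. No second tissue, age or condition was analysed here, so the levels are a description. The test compares 2 libraries, each from 1 pup.

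MicroRNAs are short RNAs cut from hairpin precursors. They guide Argonaute proteins to messenger RNAs, mainly through the seed, bases 2 to 8 of the mature arm. The miR-183 cluster is a polycistron, meaning that its precursors are made from a shared primary transcript. It is best known from sensory cells such as photoreceptors and hair cells, and seed mutations of miR-96 cause hearing loss in mice and humans. It is also found in epithelia. miR-375 is best known from pancreatic islets, where it restrains insulin secretion, and from other endocrine and neuroendocrine cells, which in the lung lie in the airway epithelium.

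The mature arms are shown because the cluster genes differ from each other in the seed by so few bases. RefSeq on GRCm38.p6 gave 7 mature arms for the 4 genes, printed 5′ to 3′ with the seed in capitals. It gave no mature entry for miR-375-3p, so that arm is named only and its seed is not shown.
miR-183-5p: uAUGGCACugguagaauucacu
miR-96-5p: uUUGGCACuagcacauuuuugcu
miR-182-5p: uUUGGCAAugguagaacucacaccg
miR-183-3p: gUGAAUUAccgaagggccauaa
miR-96-3p: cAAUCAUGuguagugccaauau
miR-182-3p: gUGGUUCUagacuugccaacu
miR-375-5p: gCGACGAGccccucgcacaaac

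With positions counted from 1 at the 5′ end and no gap, the seeds of miR-182-5p and miR-96-5p share 6 of 7 bases and differ by A8C. The seeds of miR-183-5p and miR-96-5p also share 6 of 7 bases and differ by A2U. Those of miR-182-5p and miR-183-5p share 5 of 7 bases and differ by U2A and A8C. Outside the seed the order of likeness was different. miR-182-5p and miR-183-5p matched at 13 of 15 positions outside it and share the run ugguagaa from position 9 to 16, whereas miR-182-5p and miR-96-5p matched at 6 of 16 and miR-183-5p and miR-96-5p at 7 of 15. Among the 1738 mature arms in the table, no arm of another gene had the seed of miR-182-5p, miR-183-5p or miR-375-5p. The seed of miR-375-3p was not searched, so whether other genes share it is not known here. The seed of miR-96-5p is also that of miR-1271-5p, whose gene row, Gm24195, had 0 reads in both libraries. The seed of miR-96-3p is that of miR-3475-5p, whose gene Mir3475 had 5 and 6 reads in replicates 1 and 2.

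The hairpins show where the arms lie in each precursor, with the annotated mature arms in capitals. For Mir375 the arm in capitals is miR-375-5p.
Mir183: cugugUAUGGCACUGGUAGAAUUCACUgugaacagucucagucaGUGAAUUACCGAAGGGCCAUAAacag
Mir96: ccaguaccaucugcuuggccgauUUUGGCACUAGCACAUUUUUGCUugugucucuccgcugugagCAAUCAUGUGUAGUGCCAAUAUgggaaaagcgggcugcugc
Mir182: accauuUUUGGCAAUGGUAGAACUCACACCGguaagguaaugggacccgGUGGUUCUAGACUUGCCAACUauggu
Mir375: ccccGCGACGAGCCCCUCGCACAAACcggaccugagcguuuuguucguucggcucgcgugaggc

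Mir375 is the member richest in G and C. These bases make up 67.2% of its 64-base hairpin, against 45.7% for Mir183, 50.9% for Mir96 and 48.0% for Mir182, and a median of 51.7% over 1005 mouse hairpins. A value at least as high as that of Mir375 was found in 5.37% of those hairpins. None of the 4 precursors shares an 18-base stretch with another annotated miRNA gene. Among 141767 annotated transcripts of every kind, the only shared stretch was between Mir183, hairpin bases 14 to 31, and Skap2, in the same orientation. That stretch overlaps the end of miR-183-5p but not its seed. The counts of a gene add the reads of its arms, so no level of a single arm can be given.

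On GRCm38, the assembly also called mm10, the cluster lies on the minus strand of chromosome 6. Mir183 (ENSMUSG00000065619.2) runs from 30169668 to 30169737, Mir96 (ENSMUSG00000065586.1) from 30169446 to 30169551 and Mir182 (ENSMUSG00000076361.1) from 30165918 to 30165992. In the direction of transcription Mir183 comes first, Mir96 follows after a gap of 116 bases, and Mir182 after a further 3453 bases, so that the cluster spans 3820 bases. No annotated gene overlaps any of them. The nearest are Rncr4, a long noncoding RNA on the opposite strand that starts 3155 bases from Mir183, and Nrf1, a protein-coding gene on the opposite strand 12459 bases beyond Mir182. Mir375 (ENSMUSG00000065616.2) lies on the minus strand of chromosome 1 from 74900658 to 74900721 and also overlaps no gene. It stands between Cfap65, 1349 bases upstream, and Cryba2, a lens crystallin gene 7514 bases downstream, both on its own strand. All 4 genes are therefore intergenic in this annotation, and no host gene gives a second reading of their transcription.

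Levels are given as counts per 1000000 own-strand reads on miRNA genes (CPM). The libraries held 4532902 and 5426081 such reads in replicates 1 and 2. Markers of lung tissue were present in both. By mean level, the endothelial Mir126a was at rank 1 of all genes, the smooth muscle Mir143 at rank 3 and the multiciliated Mir449a at rank 13. Other listed genes ranked lower, the endothelial Mir221 and Mir222 at 110 and 130 and the smooth muscle Mir145a at 61. The other multiciliated genes ranked from 36 (Mir34c) to 258 (Mir449b). Multiply mapped reads, 34.6% and 36.7% of each library, are in no gene row. Genes that share sequence with other genes can thus be counted too low, so all ranks given are ranks of counted reads. Ranges in brackets are exact Clopper-Pearson 95% intervals. They cover the counting error of reads within a library only. PCR copies of a molecule are counted as separate reads, so the intervals can be too narrow even for that error. In bulk tissue, fewer cells of a type and less RNA per cell cannot be told apart.

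Mir182 was the highest of the 4 genes. It had 11870 reads in replicate 1 and 12367 in replicate 2, or 2619 CPM (interval 2572 to 2666) and 2279 CPM (2239 to 2320), with a mean of 2449 ± 240.03 CPM (SD, n = 2). The intervals of the libraries do not overlap, and replicate 1 is the higher. Mir182 ranked 48th and 47th of all miRNA genes in replicates 1 and 2. miR-182 is known, beyond sensory cells, from activated lymphocytes, where it represses Foxo1.

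Mir375 came next. It had 8864 and 12306 reads in replicates 1 and 2, or 1955 CPM (1915 to 1997) and 2268 CPM (2228 to 2308), with a mean of 2112 ± 221 CPM (SD, n = 2). Here too the intervals do not overlap, but replicate 2 is the higher. Mir182 was above it in both libraries, but by unequal margins. Mir182 exceeded Mir375 by a ratio of 1.34 (1.30 to 1.38) in replicate 1, while in replicate 2 the ratio was 1.005 (0.980 to 1.03), an interval that includes equality. These neighbours in the order did not differ beyond their spread, with a log2 ratio of 0.21 ± 0.29 (SD, n = 2) in reads per gene and -0.015 per base of precursor. Mir375 exceeded the next gene, Mir183, in both libraries, by 1.20 and 1.11 on the log2 scale.

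Mir183 and Mir96 were lower. Mir183, the first hairpin of the cluster, had 3852 and 5713 reads, or 849.8 CPM (823 to 877) in replicate 1 and 1053 CPM (1026 to 1081) in replicate 2, with a mean of 951 ± 144 CPM (SD, n = 2). Replicate 2 is the higher and the intervals do not overlap. Mir96, whose seed is the one mutated in inherited hearing loss, had 3083 and 3729 reads, or 680.1 CPM (656 to 705) and 687 CPM (665 to 709.6), with a mean of 684 ± 5.02 CPM (SD, n = 2). The libraries overlap for this gene. Mir96 ranked 95th in both libraries, and Mir183 86th and 79th.

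**Figure D1:**
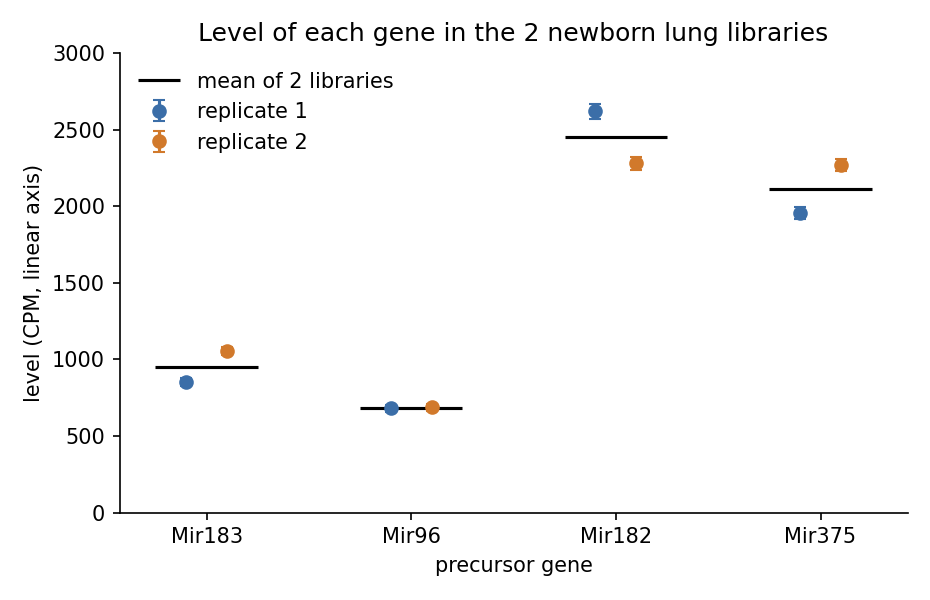
Level of each precursor gene in CPM on a linear axis, with 1 point per library, its exact 95% counting interval as the error bar and the mean of the 2 libraries as a horizontal line. Mir182 and Mir375 lie between 1955 and 2619 CPM, Mir183 and Mir96 between 680.1 and 1053 CPM, and the libraries are apart for all but Mir96.

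The cluster genes together took 18805 and 21809 reads, a summed level of 4149 and 4019 CPM in replicates 1 and 2, or 4084 ± 91.4 CPM (SD, n = 2). With Mir375 the 4 genes took 0.610% and 0.629% of the reads on miRNA genes. Each sequenced read spans about 1 mature arm whatever the precursor's length, so reads per gene were the main scale, and ratios per base of annotated precursor are given beside them.

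Genes of a shared primary transcript took unequal numbers of reads. How evenly arms of different sequence enter a library was not measured. Ratios between genes, here and below, are therefore ratios of reads. Mir182 exceeded Mir96 by 1.94 and 1.73 on the log2 scale in replicates 1 and 2, ratios of 3.85 (3.70 to 4.01) and 3.32 (3.20 to 3.44), with a mean log2 ratio of 1.84 ± 0.15 (SD, n = 2) in reads per gene and 2.34 per base of precursor. Mir182 exceeded Mir183 by 1.62 and 1.11, ratios of 3.08 and 2.16, with a mean of 1.37 ± 0.36 and of 1.27 per base. Mir183 exceeded Mir96 by 0.32 and 0.62, ratios of 1.25 and 1.53, with a mean of 0.47 ± 0.21 and of 1.07 per base. The order Mir182, Mir183, Mir96 held in both libraries on both scales. It does not follow the order along the transcript, since the highest gene is the last hairpin and the lowest is the middle one, 116 bases from Mir183. No p is given for these ratios: with 2 libraries, an exact sign-flip test (two-sided) cannot go below 0.5.

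**Figure D2:**
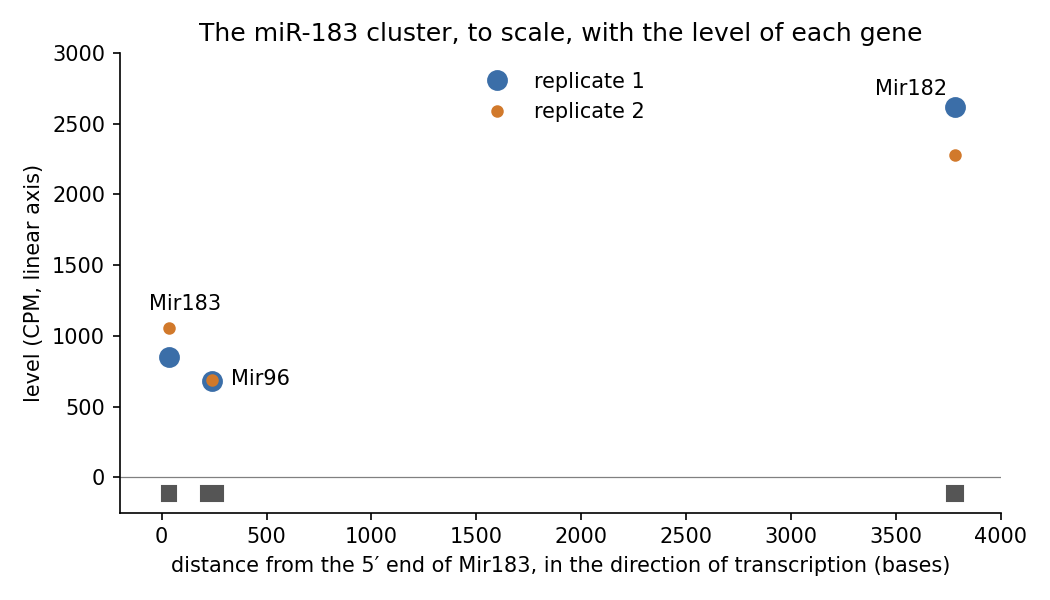
The level of each cluster gene in CPM (linear axis) against its distance in bases from the 5′ end of Mir183 in the direction of transcription, drawn to scale, with gray boxes for the hairpins and a large and a small point for replicates 1 and 2. The highest points belong to Mir182, which begins 3745 bases after Mir183, and the lowest to Mir96, which begins 186 bases after it.

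The make-up of the cluster differed between the libraries. With 1 library from each pup, pup and library preparation cannot be told apart. Mir182 made up 63.1% of the cluster's reads in replicate 1 (62.4% to 63.8%) and 56.7% in replicate 2 (56.05% to 57.4%). Mir183 made up 20.5% (19.9% to 21.1%) and 26.2% (25.6% to 26.8%). Mir96 made up 16.4% (15.9% to 16.9%) and 17.1% (16.6% to 17.6%), with overlapping intervals. The summed level had a log2 ratio of replicate 2 to replicate 1 of -0.046. Shares within the cluster do not depend on how the libraries are scaled against each other.

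**Figure D3:**
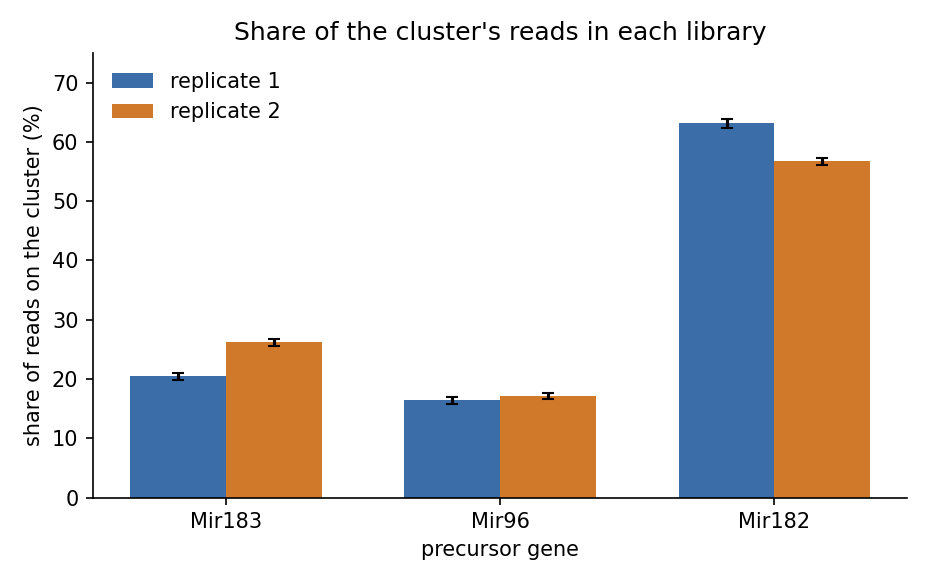
Share of the reads on the 3 cluster genes held by each gene, in percent, as 1 bar per library with its exact 95% counting interval. The bars of Mir182 stand at 63.1% and 56.7% in replicates 1 and 2 and those of Mir183 at 20.5% and 26.2%, while the intervals of Mir96 overlap.

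The libraries were then compared for all miRNA genes whose summed reads reached 10. An exact binomial test, two-sided, set each gene's split of reads against that of the totals, and p-values were adjusted after Benjamini and Hochberg over all genes tested. This test sees counting error only, and it says that 2 libraries differ, not that pups of a kind do. Of 375 genes tested, 42.4% passed at an adjusted p under 0.05, and 3 of the 4 genes described here did. As higher in replicate 2 passed 19.2% of the genes tested and 2 of the 4, and as lower passed 23.2% and 1 of the 4. The share rose with depth. Among the 233 genes that averaged 100 reads or more, which include all 4, 59.7% passed, and among genes within 2-fold of the level of each member the share was 81.1% for Mir183, 72.5% for Mir96, 84.4% for Mir182 and 85.7% for Mir375. The members' count is thus close to that of other genes of their level.

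Mir183 was higher in replicate 2, with a log2 ratio of 0.31 (0.25 to 0.37) and an adjusted p of 3.74e-24 in the exact test. Its ratio was larger in size than that of 81.5% of the 233 genes. Mir375 was also higher in replicate 2, at 0.21 (0.17 to 0.25; adjusted p 1.11e-25, exact), and exceeded 62.7% of those genes in size. Mir182 was lower in replicate 2, at -0.20 (-0.24 to -0.16; adjusted p 3.06e-26, exact), and exceeded 59.2%. Mir96 did not pass, at 0.015 (-0.054 to 0.084; adjusted p 0.819, exact), and exceeded 5.58%. The median size of the log2 ratio over the 233 genes was 0.17, so the differences of Mir375 and Mir182 are of a common size in these libraries. With TMM scaling Mir96 passed as higher in replicate 2, at 0.084 (adjusted p 0.0392, exact), and over its alternatives its adjusted p ranged from 0.0392 to 0.97002. Of the genes that passed, 45.3% were higher in replicate 2, against 62.3% with TMM scaling and 58.5% with DESeq2 size factors.

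**Figure D4:**
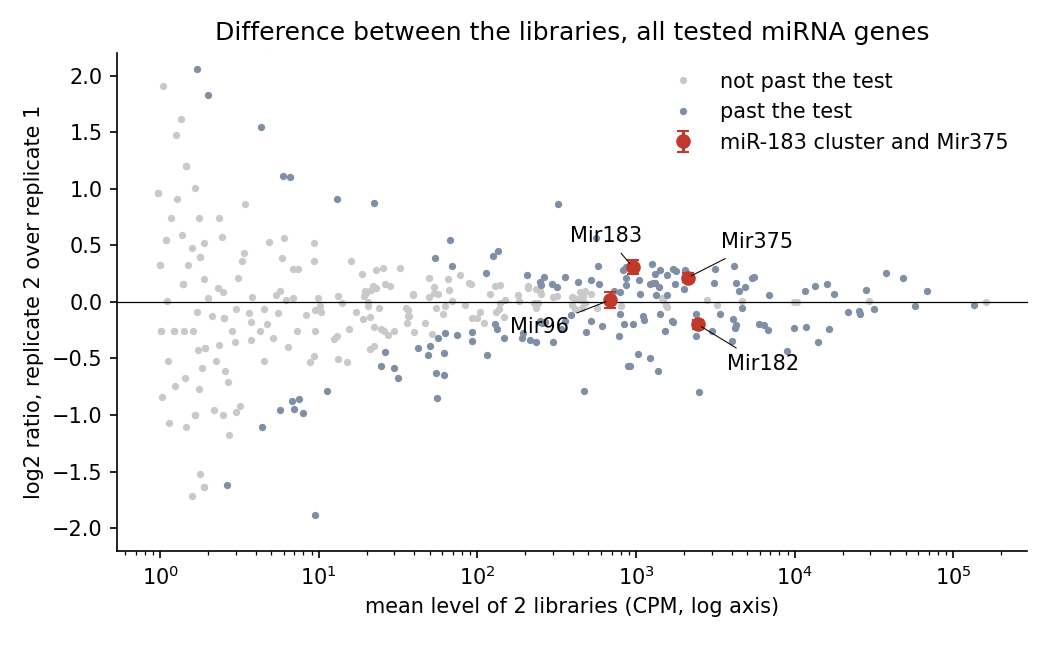
Log2 ratio of replicate 2 over replicate 1 against the mean level in CPM (log axis) for the tested miRNA genes, with the 4 genes in red and their exact 95% counting intervals, and 6 of 375 genes beyond the axis or with 0 reads in a library not drawn. Mir183 and Mir375 lie above 0 at 0.31 and 0.21, Mir182 below at -0.20 and Mir96 at 0.015.

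How far neighbours on a transcript part between these libraries was described over all pairs of miRNA genes on a strand, with gaps of at most 10000 bases and an average of 100 reads or more each. The log2 ratio of Mir182 to Mir183 differed by 0.51 between the libraries, that of Mir183 to Mir96 by 0.29 and that of Mir182 to Mir96 by 0.22. Over 253 other such pairs, of which 169 lie on chromosome 12, the median was 0.26. A larger difference than that of Mir182 and Mir183 was seen in 20.9% of those pairs, and a larger one than that of Mir182 and Mir96 in 58.9%. Pairs share genes and libraries, so these shares are a description. They are not matched for depth either. Each cluster gene had at least 3083 reads in a library, whereas genes of other pairs could average as few as 100. Counting error widens differences more at few reads, so the shares can make those of the cluster look more common than at its depth.

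The miR-200 family, which holds epithelial cells in their epithelial state by repressing Zeb1 and Zeb2, gave the epithelial level to set the members against. All 5 of its genes were measured, and its summed level was 30789 and 30324 CPM in replicates 1 and 2. That sum exceeded the cluster's by ratios of 7.42 (7.31 to 7.54) and 7.54 (7.44 to 7.65), or 2.90 ± 0.017 on the log2 scale (SD, n = 2). It exceeded Mir375 by 15.7 (15.4 to 16.1) and 13.4 (13.1 to 13.6), or 3.86 ± 0.17. The intervals of the libraries overlap for the ratio to the cluster and do not for that to Mir375.

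Single genes of that family overlapped the members in level. Mir200a stood at 1184 and 1062 CPM and Mir141 at 1785 and 1583 CPM, between Mir375 and Mir183 in both libraries. Mir200b, at 6822 and 5913 CPM, Mir200c, at 9837 and 9840 CPM, and Mir429, at 11160 and 11926 CPM, were above all 4 members. Mir429 passed the exact test as higher in replicate 2, Mir200a, Mir200b and Mir141 as lower, and Mir200c did not pass. Among all genes tested 42.4% passed. Among the 233 that averaged 100 reads or more, which include this whole family, 59.7% did. The same ratios were taken within this family. The log2 ratio of Mir429 to Mir200b differed by 0.30 between libraries, that of Mir429 to Mir200a by 0.25, that of Mir200c to Mir141 by 0.17 and that of Mir200b to Mir200a by 0.050. In the cluster the values were 0.51 for Mir182 and Mir183, 0.29 for Mir183 and Mir96 and 0.22 for Mir182 and Mir96. The last 2 lie within the range of the miR-200 ratios.

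Markers of other epithelial cells were measured beside them. The squamous and basal miRNAs Mir203 and Mir205 stood at 1160 and 1294 CPM and at 531 and 441 CPM in replicates 1 and 2, Mir203 above Mir183 and Mir205 below Mir96 in both libraries. Mir203 passed the exact test as higher in replicate 2 and Mir205 as lower. The multiciliated list of Mir449a, Mir449b, Mir449c, Mir34b and Mir34c totalled 22081 and 22235 CPM, led by Mir449a at 17359 and 18195 CPM and Mir34c at 4554 and 3882 CPM. In that list Mir449a passed as higher, Mir34c as lower and 3 genes did not pass, a share near the 42.4% of all genes tested. Their part in the difference of the members between libraries was not tested.

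**Figure D5:**
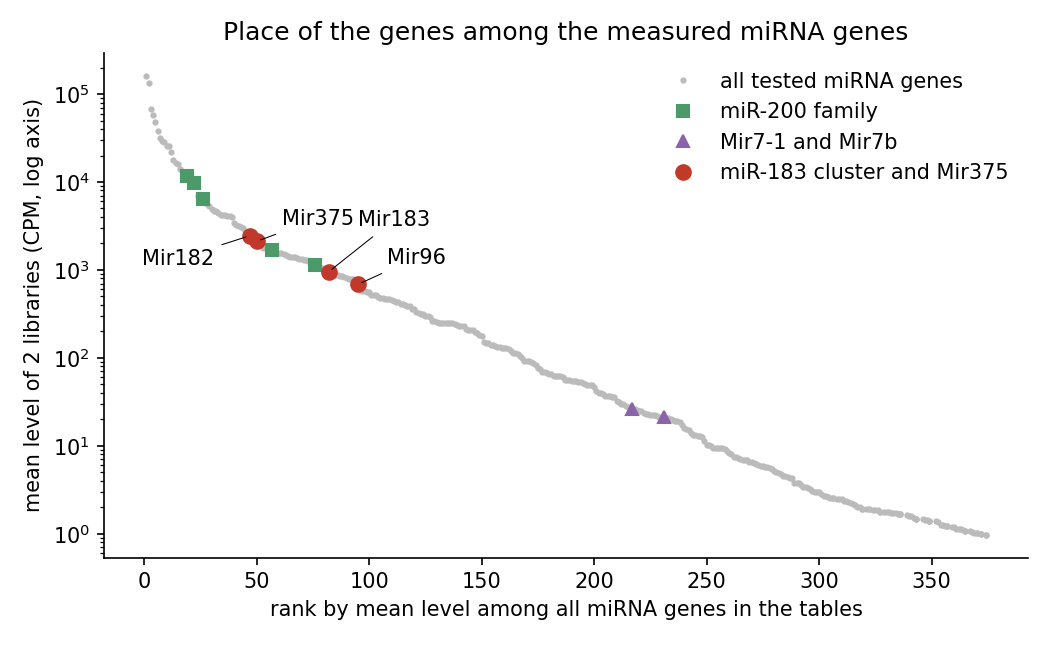
Mean level in CPM (log axis) of the tested miRNA genes against their rank among all miRNA genes in the tables, with the 4 genes as red circles, the miR-200 family as green squares and Mir7-1 and Mir7b as purple triangles. Mir182 and Mir375 take ranks 47 and 50, Mir183 and Mir96 ranks 82 and 95, and Mir7-1 and Mir7b ranks 217 and 231.

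Whether other endocrine or neuronal miRNAs stood near Mir375 was described with marker lists. miR-7, abundant in islets and other neuroendocrine tissue, was far below it. Its listed genes Mir7-1, Mir7-2 and Mir7b totalled 54.5 and 40.2 CPM, and Mir375 exceeded this sum by ratios of 35.9 (31.6 to 40.9) and 56.4 (49.4 to 64.8). A row named Mir7j, at 37.9 and 34.8 CPM in replicates 1 and 2, was not on the list and is not in this sum. Mir7-1 had 136 and 120 reads and passed as lower in replicate 2, near the threshold (adjusted p 0.0412, exact). Its call under other scalings is not given here. Mir7b had 109 and 98 reads and did not pass, and Mir7-2 had 2 and 0. Mir7-1 and Mir7-2 share a stretch of 18 bases, so reads mapped to several places can leave their level too low.

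Of 11 measured neuronal genes, 4 had 0 reads in both libraries, namely Mir124a-1, Mir124a-2, Mir124a-3 and Mir9-2. All 4 share an 18-base stretch with other miRNA genes, so their 0 sets no limit. The neuronal list totalled 321 and 306 CPM, with the highest means for Mir132, at 183 and 184 CPM, and Mir137, at 51.0 and 55.8 CPM. Neither holds such a stretch and neither passed the test. Of the 6 neuronal genes with enough reads to be tested, 1 passed, beside 42.4% of all genes tested. It was Mir153, at 56.3 and 40.7 CPM, lower in replicate 2 and above Mir137 in replicate 1. Mir132 is induced by activity in neurons and is found in other cells too.

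Pancreatic acinar markers and markers of liver and gut were described in the same way. The pancreatic acinar genes Mir217, Mir216a and Mir216b totalled 1.32 and 1.11 CPM, with 6 and 4 reads for Mir217 and 0 and 1 read for each of the others. The liver and gut list totalled 205 and 195 CPM, led by Mir192 at 97.1 and 87.9 CPM. Mir194-2, with 257 and 235 reads, and the hepatocyte Mir122, with 208 and 288, came next in an order that differed between the libraries. Mir194-1 and Mir194-2 each share a stretch of bases with another miRNA gene. Reads mapped to several places can therefore leave their levels and the list total too low. The order within the list is that of the counted reads only. In that list 2 of 5 genes passed, 1 as higher in replicate 2 and 1 as lower, a share near the 42.4% of all genes tested. In counted reads, Mir375 exceeded each gene of both lists in both libraries. The label neuroendocrine describes where miR-375 is known from, and no value here assigns its reads to a cell type.

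The genes most like each member were taken as the 3 with the smallest distance in log2(CPM + 1) over the 2 libraries, among genes that averaged 100 reads or more. Nearest to Mir182 were Mir20a (distance 0.090), Mir125a (0.094) and Mir93 (0.31). Nearest to Mir375 were Mir487b (0.099), Mir431 (0.12) and Mir20a (0.33). For Mir183 they were Mir1193 (0.19), Mir100 (0.20) and Mir27a (0.21), and for Mir96 they were Mir29a (0.13), Mir135b (0.28) and Mir28a (0.31). No member was among the genes most like another. Over 2 libraries this likeness is mostly one of level.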

How the data were processed

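The authors deposited 1 table per library with whole-number read counts per miRNA gene, not normalized. The files' deposited description names mm10 and GENCODE M4. The aligner was not given in the sources used here, nor were the counter and the filters. Of the 3 count columns, the one with 98.2% and 98.0% of the reads on genes was read as own-strand. The 4 rows without a gene, 45.2% and 47.8% of 8277063 and 10391718 reads, were left out. Apart from the labels nothing shows that the libraries come from separate pups, and differences between them may be technical.

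Identifiers were matched without version to GENCODE M21 on GRCm38 (1894 of 1973), and sequences to RefSeq on GRCm38.p6. CPM, ratios, shares, intervals and the exact binomial test with its Benjamini-Hochberg adjustment were computed from the deposited counts with SciPy 1.17.1. The test was checked on simulated counts that held counting error only, so the check does not cover other variation between libraries. TMM (edgeR 4.0.16) and size factors (DESeq2 1.42.0) gave alternative scalings. edgeR's quasi-likelihood test could not be fitted to 1 group. Other alternatives were the strand column, the filter on reads, the denominator, precursor length and leaving out a library. Named were the 4 members, the miR-200 family, the 2 leading genes of each marker list, seed-sharing genes and the 3 genes nearest in level. The comparisons with neighbouring pairs and with genes within 2-fold of a member's level were added after results were seen. The members and lists were chosen with earlier results of these data known.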

Additional observations from a re-analysis of the deposited data

Results flagged for a closer look

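Reads on the strand opposite to a gene enter only the alternative that counts either strand. The 4 genes described had at most 2 of them in a library, under the 3 reads that a count of 0 allows. Among the genes of the marker lists, those above that limit in both libraries were, in replicates 1 and 2, Mir203 with 22 and 17, Mir126a with 14 and 19, and Mir129-2 with 5 and 7 opposite-strand reads. Genes outside the lists, which were not looked at one by one, hold most of the 83568 and 108456 opposite-strand reads.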

How the results depend on the processing

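Of 50 alternatives other than leaving out a library, over 17 results, 36 were counted as unchanged. They kept direction and side of the threshold, moved by less than the SD of the libraries, or gave a similar number of genes passing. That last rule took no account of direction. Of the genes that passed, 45.3% were higher in replicate 2, against 62.3% with TMM scaling. With TMM scaling, which raises every log2 ratio of replicate 2 to replicate 1 by 0.069 (DESeq2 size factors: 0.054), Mir96 passed at 0.084. Mir183, Mir182 and Mir375 kept direction and call under TMM, DESeq2 size factors, other read filters and either-strand reads. Over these settings 145 to 165 genes passed, against 159.

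Levels depend on the denominator. Over all rows of the tables the means of Mir183, Mir96, Mir182 and Mir375 were 508, 366, 1312 and 1128 CPM, and without the 2 most abundant genes 1349, 969.95, 3475 and 2996 CPM. With either-strand reads Mir96 stood at 671 CPM, a shift larger than its small SD. Per base of precursor the log2 ratio was 2.34 for Mir182 over Mir96, 1.07 for Mir183 over Mir96 and 0.68 for the cluster sum over Mir375, against 0.96 in reads per gene. Mir182 over Mir375 changed sign to -0.015.

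Leaving out each library in turn gave the other library's value, from 849.8 to 1053 CPM for Mir183, 680.1 to 687 for Mir96, 2279 to 2619 for Mir182 and 1955 to 2268 for Mir375. No paired analysis was possible because there is only 1 group. With 2 libraries, SDs are imprecise.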
